A study of Mus musculus with 6 samples.

Results

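The cell cycle genes described here are 36 genes whose transcripts are made when cells copy their DNA or divide. They were listed by name from their known roles, with earlier results of these data known, and were divided into 14 replication genes, 2 G1/S cyclins (Ccne1 and Ccne2) and 20 mitotic genes. All 36 were found among the 36711 gene identifiers of the study, and all 36 passed the filter on low values, as did 12804 genes in all. RNA was taken from knee cartilage, from the tibia and femur, of mice on the C57/Bl6 background at 3 months of age, with 3 miR-455 null and 3 WT libraries. In the null mice, made by CRISPR-Cas9, neither arm of the microRNA miR-455 (3p or 5p) is intact in any cell, because a germline deletion cuts into each, while WT mice carry the intact locus. Levels are given as abundances, the length-normalised and scaled signal that the authors deposited for each gene, so levels of different genes may be compared. The numbers of reads behind them are unknown, and nothing in the labels says whether the libraries of a genotype came from separate animals, so each test measures the spread between these libraries.

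A cell commits to division in G1, when cyclins bound to their kinases release E2F transcription factors from the retinoblastoma family of proteins. E2F then drives the genes that license origins, unwind DNA and make nucleotides in S phase. Genes of G2 and mitosis follow later, through the CHR element and neighbouring CCAAT boxes of their promoters, which bind the MuvB complexes and NF-Y. Articular chondrocytes of adult mice divide rarely, whereas marrow erythroblasts, promyelocytes and early B cells divide often.

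The labels give the cell type as chondrocyte, and some genes known from that cell, such as Sox9 and Matn1, were scarce. Col2a1, which encodes type II collagen, gave 24.8, 63.8 and 31.1 in null libraries 1 to 3 and 21.6, 19.0 and 18.4 in WT libraries 1 to 3. Sox9, the master regulator of chondrocytes, was at 0.623 to 1.05 in null and 0.675 to 1.32 in WT libraries, and Matn1 was listed at 0 in WT 2. Other chondrocyte genes were higher than Sox9 and Matn1. Comp was at 64.3, 46.8 and 38.1 in null and at 35.6, 38.25 and 40.1 in WT libraries. Chad was at 54.95, 62.4 and 41.9 in null and at 49.4, 32.5 and 41.45 in WT libraries. Top2a, the topoisomerase of dividing cells, was at 210, 173 and 148 in null and 184, 195 and 182 in WT libraries, above Col2a1 in all 6. The 4 adult globin genes gave 21.3%, 19.7% and 11.3% of total abundance in null and 26.8%, 26.9% and 26.1% in WT libraries, so blood and marrow RNA were present throughout. In such mixed tissue, fewer cells of a type and less RNA per cell cannot be told apart. Null 3 stood apart from the other libraries in its marrow genes, and results that rest on it are given with and without it.

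The promoters of the replication and mitotic genes differed in the words they held. They were read from RefSeq (GRCm38.p6) as windows from 250 bases before the transcription start to 50 bases from it on, which 29 of the 36 genes had. Mcm4, Gins2, Ccne2, Ccna2, Aurkb, Tpx2 and Kif20a had no window in the table used here. Of the replication genes, 6 of 12 (50%) held an E2F word (TTTGGCGC, TTTCCCGC or TTTCGCGC, on either strand), against 1 of 16 mitotic genes (6.25%) and 2.12% of 27025 genes with a window. A CHR word (TTTGAA or TTCGAA, on either strand) lay within 50 bases of the start in 1 of 12 replication genes (8.33%) and in 11 of 16 mitotic genes (68.8%), against 6.12% of all genes. A CCAAT box on either strand was in 9 of 12 replication and 14 of 16 mitotic genes, against 41.1% of all genes. The words TTTCGCGC and TTTGGCGC can overlap on opposite strands, as in Mcm5 and Mcm6, and TTCGAA reads the same on both strands, so that matches are not independent. A match is a word in a window and not evidence of binding.

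The replication windows are shown for their E2F words, which with CCAAT boxes are in capitals. They are Mcm5 (chr8:75109339-75109448, plus strand), Mcm6 (chr1:128359711-128359825, minus strand), Mcm3 (chr1:20820263-20820392, minus strand) and Cdc6 (chr11:98908001-98908080, plus strand).
Mcm5: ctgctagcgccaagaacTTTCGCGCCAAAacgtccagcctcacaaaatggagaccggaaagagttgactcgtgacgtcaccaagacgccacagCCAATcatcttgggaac
Mcm6: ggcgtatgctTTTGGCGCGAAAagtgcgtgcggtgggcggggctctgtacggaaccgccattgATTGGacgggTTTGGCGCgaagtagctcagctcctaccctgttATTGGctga
Mcm3: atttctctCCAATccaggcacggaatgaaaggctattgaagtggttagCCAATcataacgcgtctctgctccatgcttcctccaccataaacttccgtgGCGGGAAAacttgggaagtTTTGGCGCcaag
Cdc6: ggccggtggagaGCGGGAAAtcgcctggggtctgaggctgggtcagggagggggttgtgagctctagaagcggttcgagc

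The mitotic windows are shown for their CHR words, again in capitals with CCAAT boxes. They are Ccnb2 (chr9:70421540-70421654, minus strand), Cdc20 (chr4:118437324-118437408, minus strand), Kif11 (chr19:37376322-37376391, plus strand), Plk1 (chr7:122159410-122159479, plus strand), Ube2c (chr2:164769829-164769928, plus strand) and Cdk1 (chr10:69352913-69353052, minus strand). Cdk1 was the mitotic gene that also held an E2F word, TTTCGCGC, in capitals near the left end of its window.
Ccnb2: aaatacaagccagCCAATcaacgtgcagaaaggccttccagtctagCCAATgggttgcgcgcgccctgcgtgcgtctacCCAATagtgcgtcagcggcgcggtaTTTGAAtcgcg
Cdc20: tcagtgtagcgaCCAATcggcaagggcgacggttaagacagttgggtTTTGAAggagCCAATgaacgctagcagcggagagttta
Kif11: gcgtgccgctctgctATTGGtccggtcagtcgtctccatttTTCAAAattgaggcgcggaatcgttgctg
Plk1: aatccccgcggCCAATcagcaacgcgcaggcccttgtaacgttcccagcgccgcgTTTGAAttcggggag
Ube2c: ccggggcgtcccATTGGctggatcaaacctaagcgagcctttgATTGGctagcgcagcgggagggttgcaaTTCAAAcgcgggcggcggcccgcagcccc
Cdk1: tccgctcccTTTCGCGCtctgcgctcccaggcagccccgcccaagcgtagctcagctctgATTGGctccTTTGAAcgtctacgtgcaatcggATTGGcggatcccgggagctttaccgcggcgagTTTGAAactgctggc

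**Figure D1:**
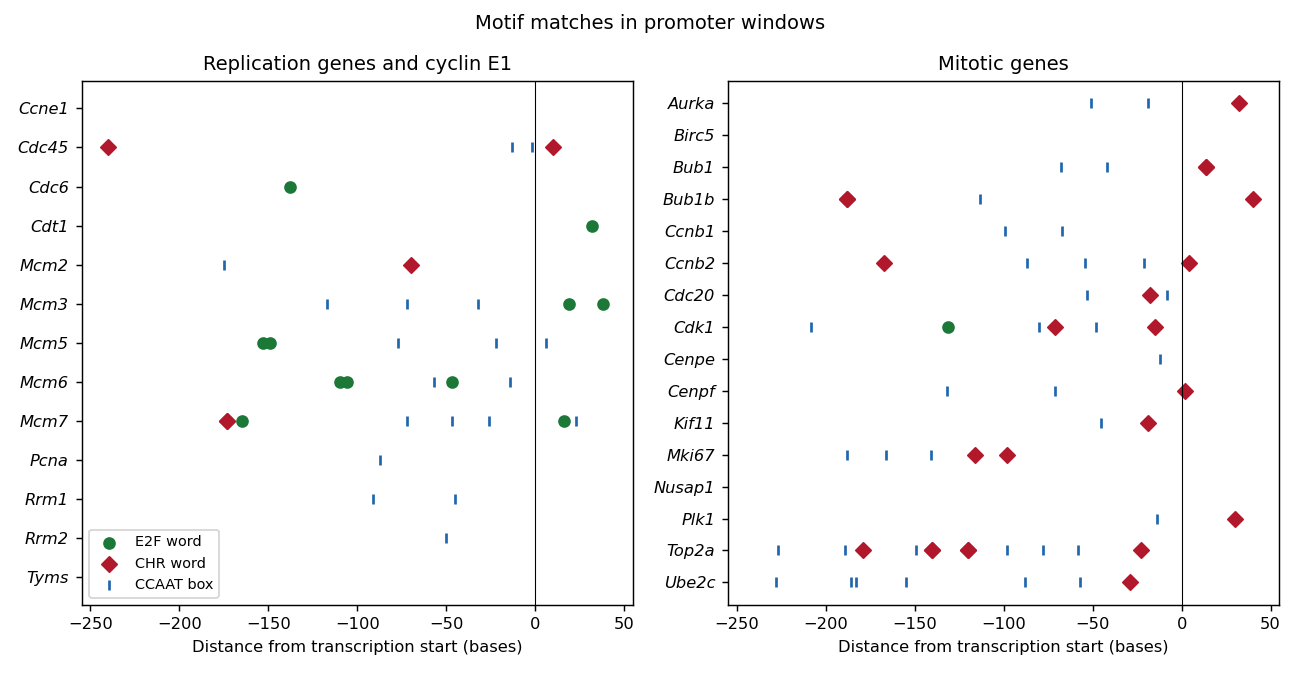
Matches to E2F words (green circles), CHR words (red diamonds) and CCAAT boxes (blue bars) in the promoter windows of the replication genes and cyclin E1 (left) and the mitotic genes (right), by distance in bases of the match's first base from the transcription start. Mcm7 has windows at more than 1 start, drawn on the same row. E2F words lie in 6 of 12 replication genes, and CHR words near the start in 11 of 16 mitotic genes.

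The first question was whether cell cycle genes differed in level between null and WT cartilage. None of the 36 passed adjusted p 0.05 by limma with Benjamini-Hochberg adjustment over all genes (adjusted p from 0.812 to 0.980), where 0.0312% of all genes tested passed. At an unadjusted limma p under 0.05, 1 of 36 was lower in null, Gins2, against 2.32% of all genes, and 0 were higher, against 3.25% of all genes. The log2 fold change of null over WT was negative for 28 of 36, being 11 of 14 replication, both G1/S cyclin and 15 of 20 mitotic genes, where 46% of all genes had a negative value. The median log2 fold change was −0.14 for replication, −0.18 for G1/S cyclin and −0.097 for mitotic genes, against 0.021 for all genes. All null libraries lay below all WT libraries for 2 of 36, Gins2 and Nusap1, against 5.11% of all genes, and above them for 0 of 36, against 6.25% of all genes. In the other 34 genes the genotypes overlapped.

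These directions rested on null 3. It was the lowest of the 6 libraries for 27 of the 36 genes, being 13 of 14 replication and 13 of 20 mitotic genes and Ccne1, against 25.7% of all genes. Without null 3, the log2 fold change was negative for 17 of 36, being 6 of 14 replication and 9 of 20 mitotic genes and both G1/S cyclins, against 48.1% of all genes. The medians without it were 0.014 for replication and 0.0045 for mitotic genes, against 0.0081 for all genes. At an unadjusted limma p under 0.05, 0 of 36 were then lower, against 2.1% of all genes, and 0 were higher, against 3.06% of all genes. Without null 1, by contrast, 5 of 36 were lower at that p (Mcm3, Rrm1, Ccne1, Birc5 and Ube2c), against 7.51% of all genes. Scaling mattered as well. With the total abundance of every library set equal, an alternative chosen after the data were seen, the median of all genes moved to 0.13, and the medians were −0.026 for replication and 0.022 for mitotic genes, with 8 of 14 and 7 of 20 negative. Relative to the median of all genes, the replication median was −0.16 and the mitotic median −0.11 under that scaling, against −0.17 and −0.12 under the deposited one.

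**Figure D2:**
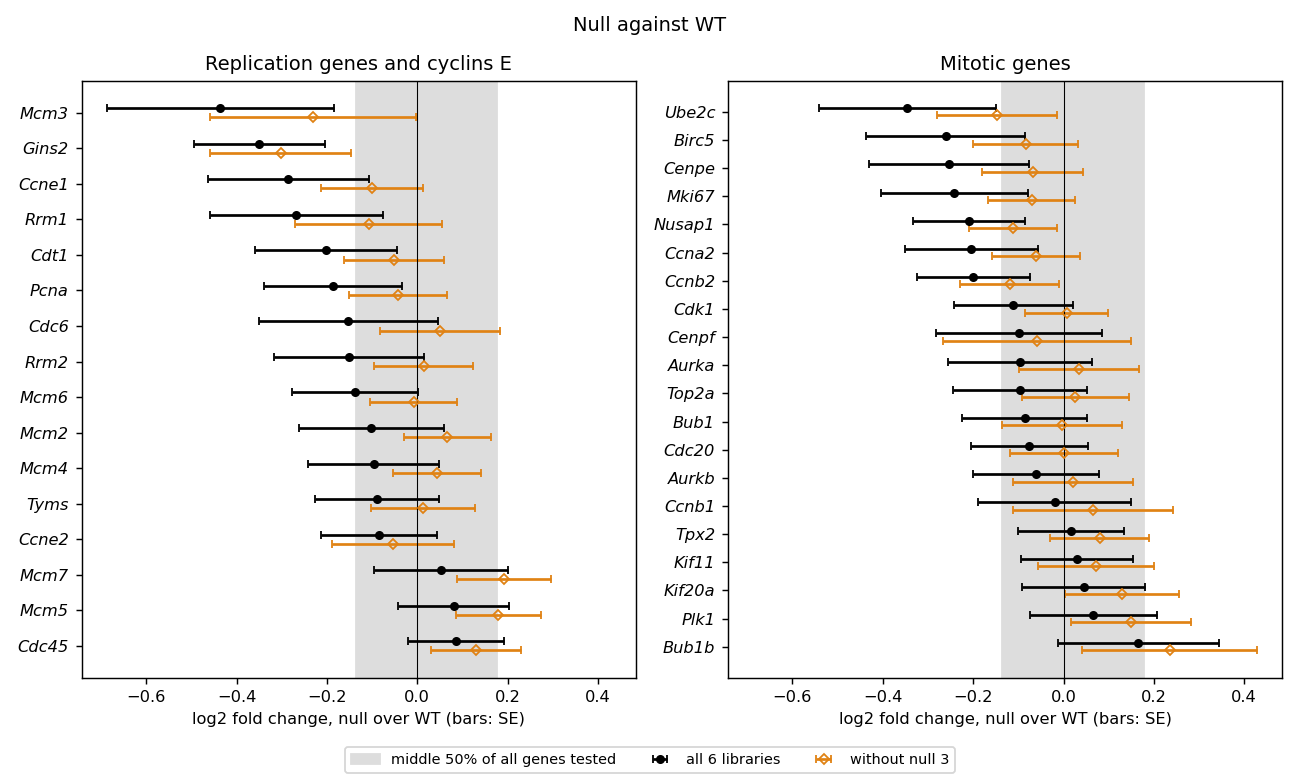
Log2 fold change of null over WT for each replication gene and cyclin E (left) and each mitotic gene (right), with all 6 libraries (black circles) and without null 3 (orange diamonds). Bars are standard errors and the grey band holds the middle 50% of all genes tested. With all libraries 28 of 36 values lie below 0, and without null 3 17 of 36.

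Among the replication genes, Mcm2 to Mcm7 encode the subunits of the hexameric helicase that is loaded at origins. Mcm3 had the lowest fold change of the 36 (log2 fold change −0.44 ± 0.25, SE, adjusted p = 0.812). It was at 125, 73.2 and 62.4 in null and at 121, 105 and 112 in WT libraries. Null 2 and null 3 lay below every WT library and null 1 lay above them, so the null libraries differed among themselves by more than the genotypes did. Without null 1 the log2 fold change of Mcm3 was −0.73 ± 0.13 (SE), past an unadjusted limma p of 0.05 but not past adjustment. The subunits did not share this pattern. Mcm7 was at 99.5, 116 and 80.4 in null and at 94.5, 93.7 and 93.7 in WT libraries, with null 1 and null 2 above WT and null 3 below. Mcm5 was at 84.4, 84.7 and 68.8 in null and at 78.3, 74.2 and 71.4 in WT libraries, in the same order. Mcm2, Mcm4 and Mcm6 had log2 fold changes between −0.14 and −0.096, and in each of them null 3 alone lay below the WT range.

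The loaders and activators of the helicase were the least abundant replication genes, although even Gins2 exceeded 70.5% of all genes tested in WT mean. Cdc6, which with Cdt1 brings the helicase to origins, was at 34.0, 30.2 and 20.9 in null and at 35.0, 30.5 and 27.8 in WT libraries. Cdt1 was at 36.5, 36.9 and 26.7 in null and at 41.8, 35.2 and 37.6 in WT libraries. For both genes null 3 was below every other library, while null 1 and null 2 lay within the WT range. Gins2, a subunit of the GINS complex that activates the helicase, was at 17.7, 18.5 and 16.3 in null and at 27.1, 20.2 and 20.5 in WT libraries. All null values lay below all WT values, and the log2 fold change was −0.35 ± 0.15 (SE, adjusted p = 0.812). Its WT spread was the widest of the replication genes, with a coefficient of variation of 17.2%, because WT 1 was high. Without WT 1 the log2 fold change of Gins2 was −0.21 ± 0.14 (SE), no longer past an unadjusted limma p of 0.05, which was so without any other single library as well. Cdc45, the partner of GINS in the active helicase, went the other way, at 30.8, 29.2 and 27.3 in null and at 27.8, 28.4 and 25.9 in WT libraries, and the genotypes overlapped.

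Pcna, Rrm2 and Rrm1 were the most abundant replication genes by WT mean. Pcna, the sliding clamp of DNA polymerases, was at 351, 321 and 249 in null and at 363, 327 and 347 in WT libraries (log2 fold change −0.19 ± 0.15, SE, adjusted p = 0.812). Rrm2, the regulated subunit of ribonucleotide reductase, was at 252, 236 and 173 in null and at 262, 228 and 237 in WT libraries. In both genes null 3 lay below every other library, and without it the log2 fold changes were −0.044 ± 0.11 for Pcna and 0.014 ± 0.11 for Rrm2 (SE). Rrm1, the large subunit of the same enzyme, was at 153, 110 and 92.9 in null and at 141, 129 and 150 in WT libraries, so that null 2 was low as well, as in Mcm3. Tyms, thymidylate synthase, was at 80.6, 90.0 and 68.7 in null and at 92.8, 79.9 and 81.0 in WT libraries, with null 3 alone below the WT range.

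The G1/S cyclins activate Cdk2 at the start of S phase. Ccne1, cyclin E1, was at 42.3, 37.2 and 26.8 in null and at 45.6, 40.1 and 42.1 in WT libraries (log2 fold change −0.29 ± 0.18, SE, adjusted p = 0.812). Ccne2, cyclin E2, was at 35.0, 28.5 and 29.6 in null and at 34.7, 34.1 and 29.7 in WT libraries, and its lowest library was null 2. The genotypes overlapped for both cyclins, and null 1 was at 0.993 of the WT mean in Ccne1 and 1.07 times it in Ccne2.

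**Figure D3:**
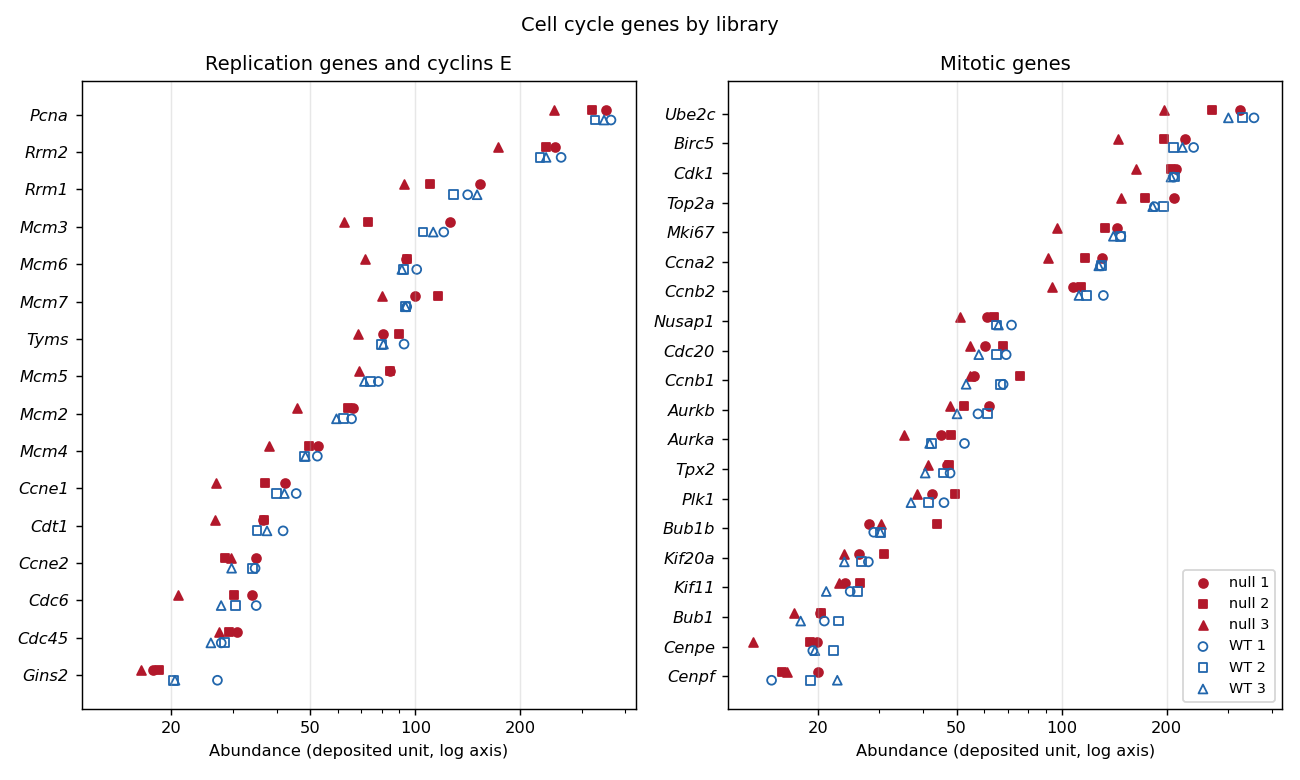
Abundance, on a log axis, of each replication gene and cyclin E (left) and each mitotic gene (right) in the 3 null libraries (filled red) and the 3 WT libraries (open blue), with genes ordered by WT mean. Null 3 (red triangles) is the lowest library for 27 of the 36 genes, while null 1 lies inside the WT range for 20 and null 2 for 14.

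Of the mitotic genes, the cyclins and their kinase differed in pattern. Cdk1, the kinase that drives entry into mitosis, was at 213, 206 and 164 in null and at 209, 210 and 206 in WT libraries, and its log2 fold change was −0.11 ± 0.13 with null 3 and 0.0072 ± 0.092 without it (SE). Ccna2, cyclin A2, was at 131, 117 and 91.7 in null and at 129, 130 and 128 in WT libraries, a WT coefficient of variation of 0.802%. Ccnb2, cyclin B2, was at 108, 114 and 93.6 in null and at 132, 118 and 112 in WT libraries, with only null 2 inside the WT range. Ccnb1, cyclin B1, was at 56.2, 75.8 and 54.6 in null and at 68.0, 67.0 and 53.3 in WT libraries, so its highest library was null 2 and its lowest WT 3. The 2 B cyclins, both partners of Cdk1, therefore did not share an order of libraries.

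The genes of mitotic exit and of the proliferating nucleus included the highest mitotic levels. Ube2c, the ubiquitin-conjugating enzyme of the anaphase-promoting complex, was at 324, 270 and 196 in null and at 356, 329 and 301 in WT libraries (log2 fold change −0.35 ± 0.20, SE, adjusted p = 0.812). Its null 3 level was 0.596 of the WT mean, the lowest such ratio of the mitotic genes, and null 2 was below WT too. Cdc20, the activator of the same complex, was at 60.4, 67.9 and 54.5 in null and at 69.4, 65.2 and 57.9 in WT libraries, with a log2 fold change of −0.075 ± 0.13 (SE). Mki67, the marker protein of cycling cells, was at 144, 133 and 96.9 in null and at 148, 148 and 141 in WT libraries. Top2a, with the levels given above, had its highest value in null 1 and its lowest in null 3.

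Survivin and the Aurora kinases, which act at centromeres and spindle poles, showed unequal differences. Birc5, which encodes survivin, was at 225.1, 197 and 145 in null and at 239, 209 and 222 in WT libraries (log2 fold change −0.26 ± 0.18, SE). Aurkb, the kinase of the same chromosomal passenger complex, was at 61.8, 52.4 and 47.9 in null and at 57.6, 61.2 and 50.2 in WT libraries, with a log2 fold change of −0.061 ± 0.14 (SE). Null 3 was the lowest library for both, at 0.651 of the WT mean in Birc5 and 0.852 in Aurkb. Aurka, the kinase of spindle poles, was at 44.97, 48.1 and 35.3 in null and at 52.7, 42.4 and 41.9 in WT libraries. Tpx2, its activator, was at 47.0, 47.5 and 41.4 in null and at 47.9, 45.9 and 40.6 in WT libraries, where the lowest value was in WT 3.

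The kinesins, the kinase Plk1 and the spindle checkpoint genes held most of the mitotic genes with a positive fold change. Plk1, a kinase of many mitotic steps, was at 42.5, 49.5 and 38.5 in null and at 46.0, 41.5 and 37.0 in WT libraries. Kif11, the motor that separates spindle poles, was at 23.9, 26.4 and 23.0 in null and at 24.8, 26.0 and 21.2 in WT libraries. Kif20a, a motor of cytokinesis, was at 26.3, 31.1 and 23.9 in null and at 27.9, 26.6 and 23.8 in WT libraries. In all of these null 2 was the highest library and WT 3 the lowest. Bub1b, which encodes the checkpoint protein BubR1, was at 28.1, 44.1 and 30.4 in null and at 28.9, 30.3 and 30.2 in WT libraries. Its log2 fold change of 0.17 ± 0.18 (SE) rested on null 2, and without that library it was −0.030. Bub1, its partner kinase, was at 20.4, 20.4 and 17.1 in null and at 20.9, 22.9 and 17.9 in WT libraries, with no such high value.

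The centromere and spindle genes completed the list. Nusap1, a microtubule-binding protein of the spindle, was at 60.9, 64.1 and 51.1 in null and at 71.8, 65.2 and 65.9 in WT libraries, and the groups did not overlap, although null 2 and WT 2 lay close together (log2 fold change −0.21 ± 0.12, SE, adjusted p = 0.812). Cenpe, a kinesin of the kinetochore, was at 19.9, 19.0 and 13.1 in null and at 19.4, 22.2 and 19.6 in WT libraries. Cenpf, a large kinetochore protein, was at 20.1, 15.8 and 16.4 in null and at 14.8, 19.0 and 22.8 in WT libraries, the widest WT spread of the 36 (coefficient of variation 21.3%). Its lowest library was WT 1 and its highest WT 3. Over all 36 genes the median WT coefficient of variation was 7.74%.

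The second question was how the cell cycle genes stood beside the marrow content of each library. Summed over the 14 replication genes, abundance was 1477, 1354 and 1042 in null and 1503, 1353 and 1404 in WT libraries. Over the 20 mitotic genes it was 1866, 1772 and 1382 in null and 1947, 1875 and 1773 in WT libraries. Null 3 was thus at 0.734 of the WT mean for replication genes and 0.741 for mitotic genes, while null 1 was at 1.04 and 1.00 and null 2 at 0.953 and 0.950. The ratio of the replication sum to the mitotic sum was 0.792, 0.764 and 0.754 in null and 0.772, 0.722 and 0.792 in WT libraries. By this ratio null 3 lay within the WT range, but sums weigh the abundant genes most. Gene by gene, the median level of null 3 over the WT mean was 0.729 for replication and 0.810 for mitotic genes. This difference was not tested.

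Several marrow lists moved in the same library. The erythroblast genes, of which 15 of 16 listed were found, summed to 3296, 2932 and 1630 in null and to 3334, 3165 and 3243 in WT libraries, so that null 3 was at 0.502 of the WT mean. Klf1, the erythroid transcription factor, was at 101, 86.5 and 51.9 in null and at 95.6, 91.6 and 84.4 in WT libraries. All 15 were lowest in null 3 and none was at 0. The 12 early B cell genes summed to 308, 352 and 167 in null and to 355, 399 and 549 in WT libraries, again lowest in null 3. The late neutrophil genes took the opposite course, with 8.22%, 12.4% and 20.4% of total abundance in null and 10.2%, 8.52% and 8.95% in WT libraries. The sum of the 8 promyelocyte genes, which mark a dividing stage, was highest in null 3, though Prtn3 was highest in null 2 and Cst7 in WT 1, and the sums were 2293, 2631 and 2864 in null and 2564, 2012 and 1935 in WT libraries.

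By exact two-sided permutation test of shares of total abundance, in which 3 against 3 libraries cannot give a p below 0.1, the globin share gave p = 0.1 (17.4% ± 5.35 in null and 26.6% ± 0.442 in WT, SD), the promyelocyte share p = 0.1, the early B share p = 0.3, the late neutrophil share p = 0.4 and the erythroblast share p = 0.8. The promyelocyte shares were 0.250%, 0.269% and 0.291% in null and 0.226%, 0.215% and 0.181% in WT libraries. The promyelocyte sums given above overlapped, with null 1 below WT 1, and the genotypes overlapped in all 8 genes. The chondrocyte, muscle and synovial fibroblast shares also gave the smallest p the exact test allows. Sums and shares took in all listed genes that were found, also those that did not pass the filter, which 11 of 14 chondrocyte genes passed. The chondrocyte share was 0.0210% ± 0.00516 in null and 0.0136% ± 0.00109 in WT (SD). Its summed abundance was 207, 246 and 150 in null and 147, 139 and 139 in WT libraries, and the library with the most chondrocyte RNA, null 2, had the replication and mitotic sums given above, at 0.953 and 0.950 of the WT mean. The 7 synovial fibroblast genes summed to 658, 366 and 327 in null and to 238, 223 and 260 in WT libraries. All null sums lay above all WT sums, and 6 of the 7 genes passed the filter. Prg4, which encodes lubricin, made up most of this sum, at 547, 295 and 216 in null and at 170, 166 and 194 in WT libraries. The sum therefore mainly follows 1 gene. The 10 muscle genes, of which 8 passed the filter, summed to 59.3 to 172 in null and to 39.7 to 54.3 in WT libraries. Their sum was highest in null 1.

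**Figure D4:**
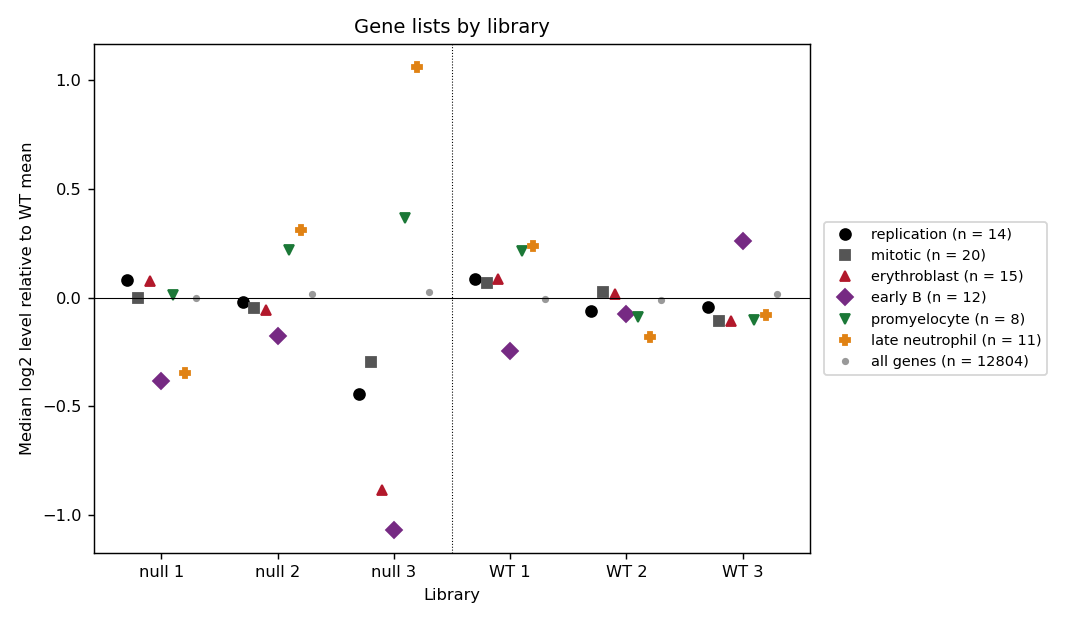
Median log2 level of the genes of each list relative to their WT mean, in each library, with the 3 null libraries left of the 3 WT libraries. In null 3 replication (−0.44) and mitotic genes (−0.30) lie below 0 with erythroblast (−0.88) and early B cell genes (−1.07), late neutrophil genes lie at 1.06, and the median of all genes is near 0.

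Set against these lists, the cell cycle genes of null 3 were less far below WT than its erythroblast genes, while its promyelocyte genes were above WT. The replication sum was 0.448, 0.462 and 0.639 times the erythroblast sum in null and 0.451, 0.428 and 0.433 times in WT libraries. Over the promyelocyte sum it was 0.644, 0.515 and 0.364 in null and 0.586, 0.673 and 0.726 in WT libraries. Null 3 was outside the WT range in both ratios, on opposite sides, and so was null 2, on the same sides but less far. Over the sum of all 7 progenitor genes (Kit, Cd34, Myb and others, of which 6 passed the filter) the replication sum was 16.6, 17.3 and 15.3 in null and 18.1, 15.2 and 15.98 in WT libraries. All null values lay inside the WT range. The mitotic sum behaved alike, with 0.848 over erythroblast genes, 0.483 over promyelocyte genes and 20.3 over progenitor genes in null 3. Myb, a transcription factor of immature blood cells that makes up the largest part of the progenitor sum, was at 46.8, 39.7 and 32.7 in null and at 40.3, 47.2 and 44.3 in WT libraries.

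**Figure D5:**
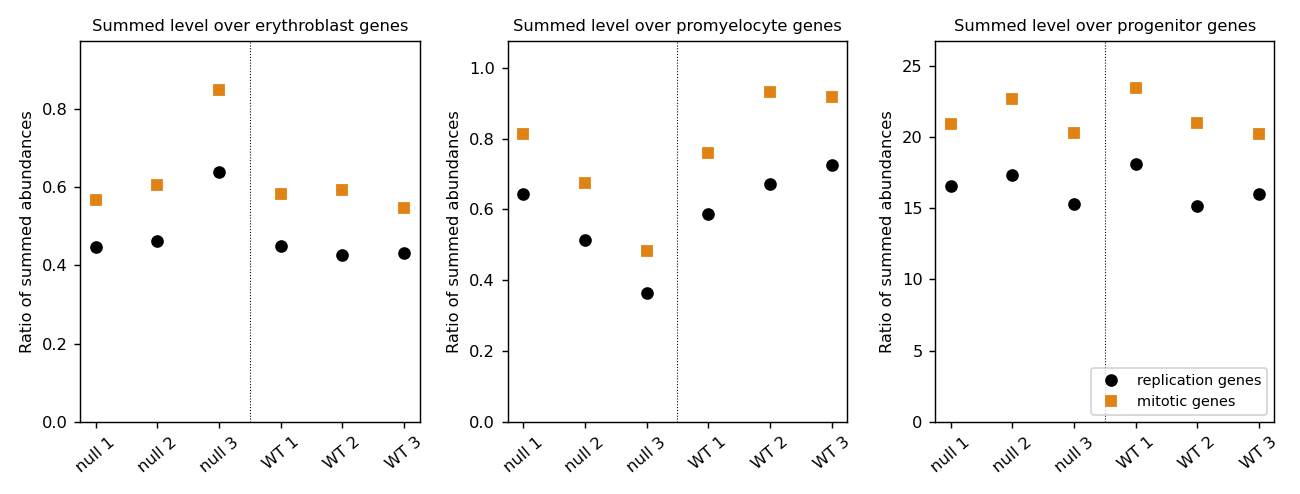
Summed abundance of replication (black circles) and mitotic genes (orange squares) divided by that of erythroblast, promyelocyte and progenitor genes in each library, with null libraries left of WT libraries. Null 3 has the highest ratio to erythroblast genes (0.639 for replication) and the lowest to promyelocyte genes (0.364), and lies within the WT range for progenitor genes (15.3).

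With the late neutrophil level of each library as a covariate, the median log2 fold change was −0.053 for replication and −0.024 for mitotic genes, nearer to 0 than without it. With the globin level as a covariate the medians were 0.25 and 0.20, and 1 of 14 replication and 1 of 20 mitotic genes were negative. Globin levels separated the genotypes, which raised the variance of the genotype term 2.99-fold, so genotype and globin could hardly be told apart in that fit. How much of the level in null 3 goes with its erythroblast, early B cell and neutrophil content was not tested further.

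Wider lists of the same phases were also mostly negative, and remained so more often without null 3 than the 36 genes did, a difference that was not tested. Of 40 further replication genes, 37 had a negative log2 fold change (median −0.17), against 46% of all genes. Of the 40, 33 were lowest in null 3, against 25.7% of all genes. Without null 3, 28 of 40 were negative (median −0.023), against 48.1% of all genes. None passed adjustment. The pair with the smallest p-values were Asf1b and Tipin. Asf1b, a histone chaperone of the replication fork, was at 69.1, 81.8 and 74.6 in null and at 59.8, 65.7 and 58.5 in WT libraries, all null values above all WT values (log2 fold change 0.29 ± 0.11, SE, adjusted p = 0.812). Tipin, a fork protection protein, was at 112, 127 and 90.1 in null and at 161, 145 and 117 in WT libraries. Asf1b thus stood against the direction of most genes of its list. Of the 40 genes, all null libraries lay below all WT libraries for 4, against 5.11% of all genes. They lay above all WT libraries for 2, against 6.25% of all genes. Of 44 further mitotic genes, 37 were negative (median −0.13) and 33 were lowest in null 3, and without it 28 of 44 were negative (median −0.039), against the same shares of all genes. Pttg1, which encodes securin, was at 36.9, 33.7 and 23.3 in null and at 44.8, 39.98 and 36.9 in WT libraries. Kif15, a spindle kinesin, was at 52.8, 34.9 and 24.2 in null and at 46.3, 55.8 and 50.03 in WT libraries. In Pttg1 and Kif15 the genotypes overlapped through null 1.

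The G1 cyclins and kinases had no low sum in null 3, and Ccnd3, cyclin D3, made up the largest part of that sum. The 7 G1 cyclins and kinases summed to 527, 525 and 530 in null and to 516, 520 and 540 in WT libraries. Ccnd3 was at 310, 289 and 332 in null and at 323, 301 and 323 in WT libraries. Of the 7, 2 were lowest in null 3, against 25.7% of all genes. These were Ccnd2 and Cdk6, at 0.852 and 0.667 of the WT mean in null 3. Cdk6, a partner of the D cyclins, was at 10.9, 10.7 and 8.53 in null and at 14.1, 14.3 and 9.96 in WT libraries. Ccnd1, cyclin D1, was at 10.4, 9.38 and 9.51 in null and at 7.11, 9.13 and 9.11 in WT libraries. All null libraries lay above all WT libraries for 2 of the 7, Ccnd1 among them, against 6.25% of all genes. They lay below all WT libraries for 0 of the 7, against 5.11% of all genes. Of 7 CDK inhibitor genes 5 passed the filter, 3 of them negative, against 46% of all genes. Cdkn2c, an inhibitor of Cdk4 and Cdk6, was at 65.0, 51.0 and 42.7 in null and at 69.9, 64.8 and 63.7 in WT libraries, lowest in null 3 as most replication genes were. Cdkn1a, which encodes p21, was at 10.98, 8.52 and 9.78 in null and at 8.25, 8.36 and 7.21 in WT libraries. All its null values lay above all WT values, as in 6.25% of all genes. Of 16 E2F, DP, pocket protein and MuvB genes 10 were negative (median −0.10), against 46% of all genes. Of the 16, 9 were lowest in null 3, against 25.7% of all genes. Lin9, a MuvB subunit, was at 9.31, 9.08 and 6.53 in null and at 11.1, 10.3 and 10.2 in WT libraries. All its null values lay below all WT values, as in 5.11% of all genes. Tfdp1, the DP partner of E2F, was at 101, 114 and 129 in null and at 99.2, 97.2 and 95.5 in WT libraries, highest in null 3. All its null values lay above all WT values, as in 6.25% of all genes. None of the genes of these G1, inhibitor and E2F lists passed adjustment by limma (smallest adjusted p = 0.812).

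The third question was whether cell cycle genes carry sites for the deleted microRNA. The mature sequences of miR-455 lie on chr4 (GRCm38.p6), at chr4:63256904-63256924 for miR-455-3p and chr4:63256867-63256888 for miR-455-5p, on the plus strand, and are shown with the seed, bases 2 to 8, in capitals.
miR-455-3p: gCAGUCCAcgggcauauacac
miR-455-5p: uAUGUGCCuuuggacuacaucg
The longest annotated 3′UTR of 8 of the 36 genes (22.2%) contained the word TGGACTG, complementary to the seed of miR-455-3p over 7 bases, against 13.4% of the 11874 genes tested with a 3′UTR. The word GGCACAT, which pairs with the miR-455-5p seed, was held by 2 of 36 (5.56%), against 8.86%. The lengths of the 3′UTRs were not matched. The miR-455-3p sites were in Cdc6, Mcm2, Mcm6 and Tyms among replication genes and in Birc5, Ccnb2, Cdk1 and Tpx2 among mitotic genes, and Cdc6 and Tyms also held a miR-455-5p site. The sites of Ccnb2, Mcm2, Mcm6 and Cdk1 are printed with the match in capitals and up to 10 bases on each side. The Ccnb2 site begins at base 5 after the stop codon.
Ccnb2: acacTGGACTGccatcctgcg
Mcm2: gttgtgtttcTGGACTGttttgttttc
Mcm6: tccgtggttcTGGACTGaggacaaact
Cdk1: caaacgatctTGGACTGtaaaaacctg

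Of the 8 genes with a miR-455-3p site, 0 were higher in null at an unadjusted limma p under 0.05, where 3.25% of all genes were, and a count of 0 among so few genes is no result about sites. The log2 fold change was −0.15 for Cdc6, −0.10 for Mcm2, −0.14 for Mcm6, −0.089 for Tyms, −0.26 for Birc5, −0.20 for Ccnb2, −0.11 for Cdk1 and 0.017 for Tpx2. Mcm6 was at 94.0, 94.6 and 71.8 in null and at 101, 92.3 and 91.5 in WT libraries. Genes with and without a site were not compared. These levels come from mixed tissue in which the listed chondrocyte genes were a small share of total abundance, and the levels of mature miR-455 were not analysed here.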

How the data were processed

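Total RNA from knee cartilage was sequenced in 3 miR-455 null and 3 WT libraries. According to the submitters' processing notes, FastQC, Trim Galore, kallisto and sleuth were used with build mm10, whose versions are not given in the sources used here. For each library the authors deposited one signal value for every gene under the name of normalised counts, which was not whole, was length-normalised and summed to between 917819 and 1135956 per library. The deposited values give no read depth, so no counting interval was calculated.

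Gene names came from GENCODE, which matched 35866 identifiers. Genes with an abundance of at least 1 in at least 3 libraries were fitted with limma (version 3.58.1, R 4.3.3) on log2(abundance + 0.5), with a trended prior, genotype as the single term and Benjamini-Hochberg adjustment over all 12804 genes. Fold changes on this scale understate those of low genes. The members and all lists were chosen with earlier results of these data known. All 36 members were named, with wider-list genes past adjusted p 0.05 or otherwise the 2 with the smallest p. Shares were compared by exact permutation test. Promoter words and 7-base seed matches were counted with Python 3.11.15. The fit was tested on simulated data. Alternatives were other pseudocounts, filters, scalings, variance models, covariates, a replicate block and leaving out each library.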

Additional observations from a re-analysis of the deposited data

How the results depend on the processing

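No member passed adjustment under any alternative, and pseudocounts of 0.1 or 1 changed no direction. Without a filter 2 genes passed adjustment, against 1 with a minimum of 5 or 20, 1 with the globin covariate, 2 with the late neutrophil covariate and 1 to 11 when a library was left out. The number of members lower at an unadjusted limma p under 0.05 was 0 with a minimum of 20, either total set equal, the untrended prior, the replicate block or either covariate, and 0 to 5 when a library was left out, the 5 without null 1 standing beside 7.51% of all genes. Deviations from the genotype means correlated at −0.15, 0.041 and −0.028 between libraries of like number, which did not make them pairs, and a fit with the replicate block left 11 replication and 15 mitotic genes negative and 1 gene past adjustment. Leaving out a library gave medians of −0.23 to 0.014 for replication and −0.17 to 0.0045 for mitotic genes, with 6 to 12 replication and 9 to 20 mitotic genes negative.

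With the globin covariate the medians were 0.25 for replication and 0.20 for mitotic genes, with 1 of each negative, and the log2 fold changes turned positive for Mcm2 0.37, Mcm3 0.18, Mcm4 0.31, Mcm6 0.24, Pcna 0.24, Rrm1 0.21, Rrm2 0.34, Cdc6 0.44, Cdt1 0.26, Tyms 0.23, Ccne1 0.26, Ccne2 0.0069, Mki67 0.22, Top2a 0.22, Ccnb1 0.20, Ccnb2 0.051, Ccna2 0.18, Cdk1 0.21, Bub1 0.10, Aurka 0.33, Aurkb 0.14, Birc5 0.27, Cdc20 0.15, Cenpe 0.20, Nusap1 0.081 and Ube2c 0.22. With the late neutrophil covariate they turned for Mcm2 0.0077, Top2a 0.021 and Aurkb 0.025, and with median-of-ratios scaling for Tpx2 −0.0034. With total abundance set equal, 7 mitotic genes were negative, and the values turned for Mcm2 0.017, Mcm4 0.022, Tyms 0.0295, Ccne2 0.033, Top2a 0.023, Ccnb1 0.099, Cdk1 0.0083, Bub1 0.030, Aurka 0.021, Aurkb 0.057, Cdc20 0.043 and Cenpf 0.018. The cause was not tested. Leaving out a library gave ranges across 0 for Mcm2 −0.20 to 0.067, Mcm4 −0.19 to 0.043, Mcm7 −0.071 to 0.19, Rrm2 −0.26 to 0.014, Cdc6 −0.30 to 0.051, Tyms −0.18 to 0.014, Top2a −0.23 to 0.026, Ccnb1 −0.17 to 0.066, Cdk1 −0.18 to 0.0072, Bub1b −0.030 to 0.29, Aurka −0.19 to 0.034, Aurkb −0.16 to 0.021, Tpx2 −0.051 to 0.080, Kif11 −0.055 to 0.090, Kif20a −0.0565 to 0.13, Cdc20 −0.16 to 0.0017, Plk1 −0.030 to 0.15 and Cenpf −0.26 to 0.045, and for the difference in share of erythroblast −0.079 to 0.018 and progenitor genes −0.00091 to 0.00050 percentage points. With 3 libraries a genotype and unknown depth, differences of the size seen here could not be separated from the spread between libraries.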
